A study of Mus musculus with 23 samples.

Results

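The 10 genes described here encode members of the S100 family of calcium-binding proteins: S100a1, S100a4, S100a6, S100a8, S100a9, S100a10, S100a11, S100a14, S100a16 and S100b. They were chosen by name, with earlier results of these data known. All 10 were listed in each of 3 deposited expression tables, which hold 24391, 24511 and 24322 genes. Levels are RPKM, in which the reads of a gene are divided by its length and by the size of the library. The tables were normalised separately, so levels were compared only between groups of 1 table.

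S100 proteins are small proteins that form dimers, bind calcium through a pair of EF hands and, once loaded, expose a surface that grips target proteins such as annexins and non-muscle myosin. S100a8 and S100a9 are secreted by neutrophils and other myeloid cells as a complex known as calprotectin, while S100a6, S100a10, S100a11, S100a14 and S100a16 are known mainly from epithelial and connective tissue cells. S100b is best known from glia, Schwann cells and melanocytes. The mammary epithelium has an outer basal layer of contractile cells and an inner luminal layer, which holds mature cells and their progenitors.

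Wild-type C57BL6J glands gave 2 libraries each of fMaSC, the fetal mammary stem cells, taken at embryonic day 18, and of adult basal, mature luminal and luminal progenitor cells. PY230 cells, a mouse mammary tumour line, had been transplanted into syngeneic C57BL6J mice, and the tumours gave 2 libraries each of basal SOX10 high, luminal SOX10 high and luminal SOX10 low cells. The last table holds cells from spontaneous tumours of adult C3-1-TAg mice on FVB, whose mammary epithelium makes the SV40 T antigen, with 5 libraries of SOX10 high and 4 of SOX10 low cells that the titles all call basal. Each library came from about 2000 sorted cells, no label read here names the sort markers, and none ties a library to an animal. The libraries of a group are called biological replicates by the submitters, but p-values measure only the spread between these libraries, which may in part be technical.

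The transcript of SOX10, the factor that names the tumour fractions, was at 91.9 to 164 RPKM in C3-1-TAg SOX10 high libraries and at 2.10 to 40.9 RPKM in SOX10 low libraries. In PY230 tumours it was at 72.0 and 78.3 RPKM in basal SOX10 high, 101 and 66.9 RPKM in luminal SOX10 high, and 13.6 and 11.01 RPKM in luminal SOX10 low cells. Markers of other cells were present in places. The adult basal libraries held summed luminal keratin (Krt8, Krt18, Krt19) at 2027 and 914 RPKM and the mature luminal marker list at 809 to 1017 RPKM, beside basal markers at 805 to 1718 RPKM. C3-1-TAg SOX10 low replicate 1 stood apart by its myeloid genes, with 246 RPKM of Tyrobp against 2.58 to 6.92 RPKM in the other 3 SOX10 low libraries. The number of genes at 1 RPKM or more was 10056 to 12504 per library.

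Promoter windows are shown for the members whose levels carry the comparisons below or whose start is shared with a neighbour. RefSeq windows of 250 bases upstream of the gene start, build GRCm38.p6, were matched for 8 of the 10 members, and S100a10 and S100a14 are named only. In the window of S100a1 (chr3:90514331-90514580, minus strand) capitals mark the 104 bases that also lie upstream of S100a13, which is read in the opposite direction from a start 105 bases away. In the window of S100a11 (chr3:93520246-93520495, plus strand) capitals mark 2 matches to the AP-1 motif TGANTCA. The windows of S100a6 (chr3:90612644-90612893, plus strand) and S100b (chr10:76253586-76253835, plus strand) held no match to any motif searched.
S100a1: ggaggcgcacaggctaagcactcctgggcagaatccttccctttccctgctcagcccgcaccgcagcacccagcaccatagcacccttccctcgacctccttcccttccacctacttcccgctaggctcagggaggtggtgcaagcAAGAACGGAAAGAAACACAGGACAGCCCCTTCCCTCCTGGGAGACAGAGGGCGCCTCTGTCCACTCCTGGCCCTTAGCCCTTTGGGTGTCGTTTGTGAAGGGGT
S100a11: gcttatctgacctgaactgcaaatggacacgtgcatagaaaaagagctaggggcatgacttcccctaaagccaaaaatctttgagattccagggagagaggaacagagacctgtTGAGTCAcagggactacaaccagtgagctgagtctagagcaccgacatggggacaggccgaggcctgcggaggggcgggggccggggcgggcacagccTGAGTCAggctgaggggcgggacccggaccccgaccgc
S100a6: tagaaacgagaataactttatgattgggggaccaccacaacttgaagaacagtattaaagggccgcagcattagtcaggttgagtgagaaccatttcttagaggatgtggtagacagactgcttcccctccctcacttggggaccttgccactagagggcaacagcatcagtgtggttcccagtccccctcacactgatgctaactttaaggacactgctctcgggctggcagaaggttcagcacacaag
S100b: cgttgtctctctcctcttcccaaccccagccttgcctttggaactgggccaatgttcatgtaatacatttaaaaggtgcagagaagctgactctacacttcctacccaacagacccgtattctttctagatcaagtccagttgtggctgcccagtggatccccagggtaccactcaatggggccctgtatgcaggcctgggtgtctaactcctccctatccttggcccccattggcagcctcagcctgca
Each motif was searched on both strands, and overlapping matches were counted. Of 32851 such windows, 6.75% held the AP-1 motif, among them the window of S100a11 and 1 of the 2 windows of S100a16. The SOX core motif, spelled ACAAT, occurred in 27.7% of the windows, among them the window of S100a4 and 1 of the 2 windows of S100a16. The GC box, spelled GGGCGG, occurred in 32.7% of them and was found 3 times upstream of S100a11. It also occurred in the window of S100a9 and in 1 of the 2 windows of S100a16. The TATA box, spelled TATAAA, occurred in 12.4% of them, among them the windows of S100a4 and S100a8. No match in a window says only that these letters do not occur there.

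Of the members, 9 lie on chromosome 3 and S100b lies on chromosome 10. From S100a1 to S100a9, the RefSeq order of 12 consecutive protein-coding genes held 12 S100 genes. S100a11 and S100a10 lie farther along the same chromosome.

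Levels differed over orders of magnitude between members. S100a6, S100a10 and S100a11 exceeded 100 RPKM in all 23 libraries, while S100a9 reached 1 RPKM in 8 libraries and S100b in 5. The sum over the 10 genes made up 0.224 to 0.245% of all RPKM in fMaSC, 0.763 to 0.782% in adult basal cells, 2.47 to 3.36% in mature luminal cells and 0.917 to 1.55% in luminal progenitors. In PY230 tumours the shares were 0.488 to 0.509% in basal SOX10 high, 0.514 to 1.00% in luminal SOX10 high and 1.42 to 1.83% in luminal SOX10 low cells. In C3-1-TAg tumours they overlapped, at 0.618 to 0.794% in SOX10 high and 0.671 to 0.932% in SOX10 low cells. S100a6 accounted for 8.48 to 8.55% of the sum in fMaSC and for 66.0 to 72.7% in mature luminal cells, where it ranked 3 and 4 among all genes of the 2 libraries.

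**Figure D1:**
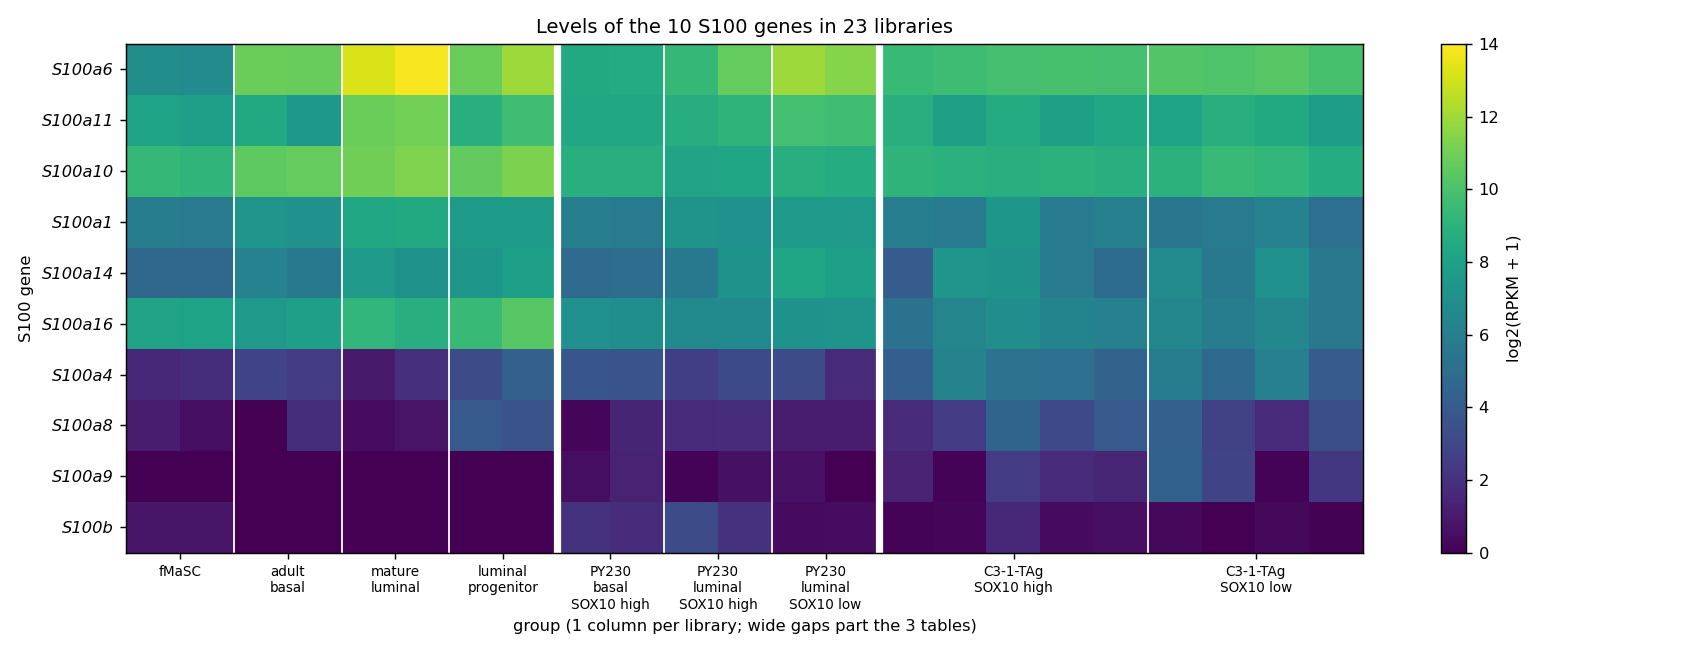
Levels of the 10 S100 genes (rows) in 23 libraries (columns), as log2(RPKM + 1) by colour. The top row, S100a6, is darkest within that row in the 2 fMaSC libraries and brightest in the 2 mature luminal libraries, and S100a9 and S100b stay dark in the adult normal libraries.

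In the normal gland S100a1, S100a6, S100a10 and S100a14 were lower in the fetal cells than in all 3 adult populations. Against adult basal cells, 4 of 8 tested members were lower in fMaSC and 0 were higher, where 23.4% of all 12553 genes tested were called lower, 36.9% higher and 60.3% in either direction. Against mature luminal cells, 6 of 8 were lower, with 14.7% of all genes called lower, 41.7% higher and 56.4% either way. Against luminal progenitors, all 8 tested members were lower, with 15.0% of all genes called lower, 35.5% higher and 50.6% either way. The median log2 fold change of the tested members was -1.11, -2.24 and -1.93 against basal, mature luminal and luminal progenitor cells, while that of all genes was 0.27, 0.53 and 0.39. S100a9 and S100b did not pass the filter of 1 RPKM in 2 libraries, so these counts cover 8 of the 10 members. With quantile normalization the median of all genes was at -0.02, -0.003 and -0.04 in these 3 comparisons, and that of the members was -1.41, -2.22 and -2.34. Most fat cell and fibroblast markers were called higher in fMaSC, with 5 of 6 fibroblast genes in each comparison. The fat cell list of 5 genes, with none at 0 in fMaSC, summed to 197 to 220.1 RPKM there, against 66.5 to 233 RPKM in basal, 6.42 to 49.4 RPKM in mature luminal and 17.3 to 30.1 RPKM in luminal progenitor cells, and 3, 4 and 3 of its 4 tested genes were called higher in fMaSC over these groups. The part of such cells in the S100 levels was not tested. The 3 comparisons share the fMaSC libraries, and calls rest on limma with Benjamini-Hochberg adjusted p under 0.05 over all genes of the table.

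**Figure D2:**
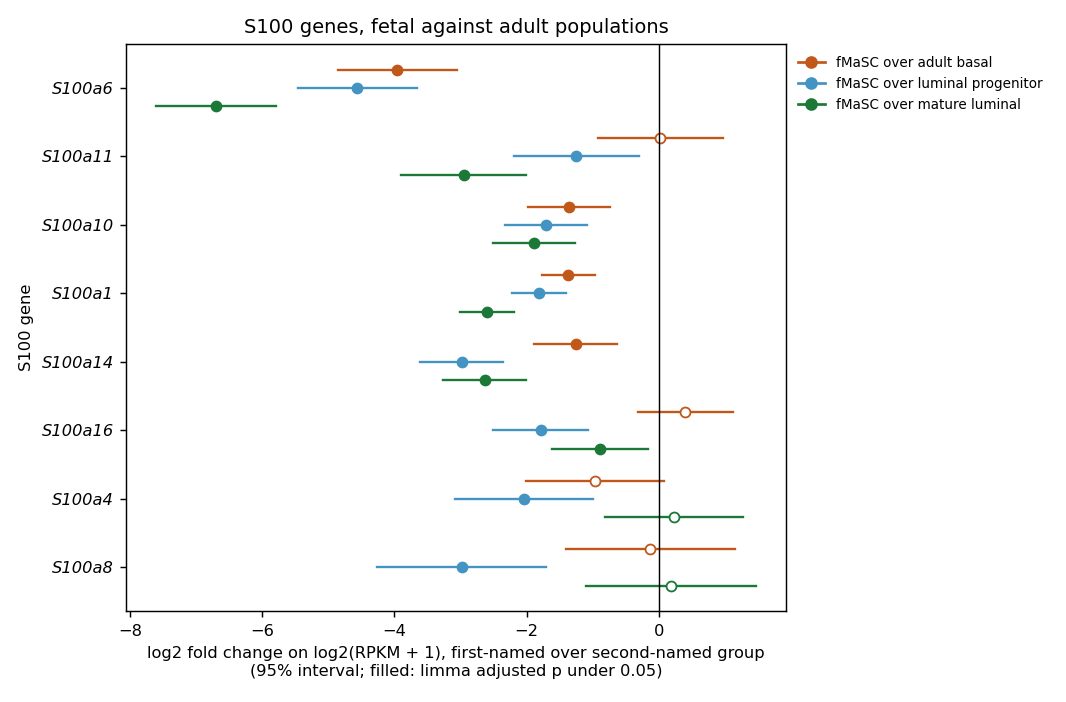
Log2 fold changes of the 8 tested S100 genes in fMaSC over adult basal, luminal progenitor and mature luminal cells, with 95% intervals; filled points have a limma adjusted p under 0.05. The S100a6 points lie at -3.96, -4.56 and -6.70, and the S100a11 and S100a16 intervals against adult basal cells span 0.

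Adult populations also differed among themselves. In basal against mature luminal cells, 5 of 8 tested members were lower and 0 higher, with 19.8% of all genes lower, 28.8% higher and 48.6% called either way. In basal cells against luminal progenitors, 4 of 8 were lower and 0 higher, with 14.5% lower, 21.0% higher and 35.5% either way. In mature luminal cells against luminal progenitors, 3 of 8 were higher and 2 lower, with 8.63% of all genes higher, 13.4% lower and 22.1% called either way. The libraries are bulk samples, so fewer cells that express a gene and less RNA per cell cannot be told apart.

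S100a6, or calcyclin, binds annexins and the ubiquitin ligase adaptor Cacybp. It was at 121 and 108 RPKM in fMaSC, 1840.2 and 1734 RPKM in adult basal cells, 9629 and 14812 RPKM in mature luminal cells and 1844 and 3994 RPKM in luminal progenitors. Both fMaSC libraries lay below every adult library, both mature luminal libraries lay above all others, and the basal and luminal progenitor libraries differed by less than their spread. Its log2 fold change in fMaSC was -3.96 (SE 0.39; limma adjusted p = 0.000188) against basal, -6.70 (adjusted p = 1.98e-05) against mature luminal and -4.56 (adjusted p = 0.000115) against luminal progenitor cells. Within the adult gland it was -2.74 in basal over mature luminal cells (limma adjusted p = 0.00141) and 2.14 in mature luminal cells over luminal progenitors (adjusted p = 0.00918). Without mature luminal replicate 2 the last of these was 1.83 and missed the threshold (limma adjusted p = 0.0704). Basal over luminal progenitor cells missed the threshold (-0.60, limma adjusted p = 0.26). The skin keratinocyte list, nearly all Krt6a, summed to 10.2 to 10.3 RPKM in fMaSC, 56.4 to 111 RPKM in basal, 461 to 462 RPKM in mature luminal and 50.2 to 96.7 RPKM in luminal progenitor cells, and its part in S100a6 was not tested.

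S100a11, or calgizzarin, binds annexin A1 and is known from epithelia and keratinocytes. It was at 273 and 236 RPKM in fMaSC, 356 and 175 RPKM in adult basal cells, 1839 and 2095 RPKM in mature luminal cells and 438 and 831 RPKM in luminal progenitors. The fMaSC and basal libraries overlapped, the luminal progenitor libraries lay above both, and the mature luminal libraries were highest. In limma its log2 fold change over mature luminal cells was -2.95 in fMaSC (adjusted p = 0.000727) and -2.97 in basal cells (adjusted p = 0.00122), and both held in all 13 alternative settings. The basal library with more S100a11 was replicate 1. It had more luminal keratin (2027 against 914 RPKM) and also more of the basal markers (1718 against 805 RPKM). The part of luminal cells in the S100a11 level was not tested. The 3 calls that involve luminal progenitors lay near the threshold and were lost without some libraries. In fMaSC over luminal progenitors the log2 fold change was -1.25 (limma adjusted p = 0.0352), against -0.79 (0.194) without luminal progenitor replicate 2, -1.35 (0.102) without fMaSC replicate 1 and -1.14 (0.153) without fMaSC replicate 2. In basal cells over luminal progenitors it was -1.27 (limma adjusted p = 0.0447), against -0.81 (0.221) without luminal progenitor replicate 2 and -0.76 (0.146) without basal replicate 2, and the call was also lost with the replicate number as a block (adjusted p = 0.0561). In mature luminal cells over luminal progenitors it was 1.70 (limma adjusted p = 0.0244), against 1.24 (0.134) without luminal progenitor replicate 1, 1.79 (0.0924) without mature luminal replicate 1 and 1.61 (0.13) without mature luminal replicate 2.

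S100a10, or p11, cannot bind calcium and forms a tetramer with annexin A2 at the plasma membrane. It was at 649 and 570.3 RPKM in fMaSC, 1463 and 1676 RPKM in adult basal cells, 2024 and 2511 RPKM in mature luminal cells and 1612 and 2445 RPKM in luminal progenitors. Every adult library lay above both fMaSC libraries, and the luminal progenitor libraries overlapped both other adult groups. The log2 fold change in fMaSC was -1.36 over basal (limma adjusted p = 0.00351), -1.89 over mature luminal (adjusted p = 0.000814) and -1.71 over luminal progenitor cells (adjusted p = 0.0016). The 3 comparisons between adult groups had limma adjusted p of 0.139 (basal over mature luminal), 0.347 (basal over luminal progenitor) and 0.683 (mature luminal over luminal progenitor). Its partner Anxa2 was at 325 and 339 RPKM in fMaSC, 550.2 and 592 RPKM in basal, 2291 and 1849.5 RPKM in mature luminal and 2346 and 2969 RPKM in luminal progenitor cells. The ratio of S100a10 to Anxa2 level was therefore 1.996 and 1.68 in fMaSC and 2.66 and 2.83 in basal cells, and lower in both luminal groups, at 0.883 and 1.36 in mature luminal cells and 0.687 and 0.824 in luminal progenitors.

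S100a1, known from heart and skeletal muscle, where it tunes calcium release and uptake, was lowest in the fetal and highest in the mature luminal cells. It was at 60.1 and 51.2 RPKM in fMaSC, 154 and 136 RPKM in adult basal cells, 325 and 358 RPKM in mature luminal cells and 199.9 and 195 RPKM in luminal progenitors, and no 2 of these groups overlapped. The log2 fold change in fMaSC was -1.37 (SE 0.17; limma adjusted p = 0.000528) over basal, -2.60 (adjusted p = 3.22e-05) over mature luminal and -1.81 (adjusted p = 0.000186) over luminal progenitor cells. Basal over mature luminal cells was -1.23 (limma adjusted p = 0.00139). Mature luminal over luminal progenitor cells was 0.79 (limma adjusted p = 0.0187), and lost the call when any 1 of the 4 libraries was left out, with adjusted p of 0.0648 and 0.109 without mature luminal replicates 1 and 2 and of 0.0768 and 0.0772 without luminal progenitor replicates 1 and 2. Basal over luminal progenitor cells missed the threshold (-0.44, limma adjusted p = 0.083).

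S100a13, the neighbour that shares the upstream window with S100a1, was also lowest in the fetal cells. It was at 11.9 and 12.5 RPKM in fMaSC, 48.6 and 43.2 RPKM in basal, 55.1 and 63.6 RPKM in mature luminal and 35.7 and 38.6 RPKM in luminal progenitor cells. Its log2 fold change in fMaSC was -1.83, -2.19 and -1.53 over basal, mature luminal and luminal progenitor cells, and all 3 passed limma's threshold. On log2(RPKM + 1), the Pearson correlation of S100a1 and S100a13 was 0.93 over the 8 normal, 0.84 over the 6 PY230 and 0.73 over the 9 C3-1-TAg libraries, as a description over libraries that share a table. The ratio of the S100a1 to the S100a13 level was 5.07 and 4.10 in fMaSC, 3.18 and 3.14 in basal, 5.90 and 5.63 in mature luminal and 5.61 and 5.06 in luminal progenitor cells. The basal libraries had the lowest ratio of the normal gland, with S100a13 above and S100a1 below the luminal progenitor libraries.

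**Figure D3:**
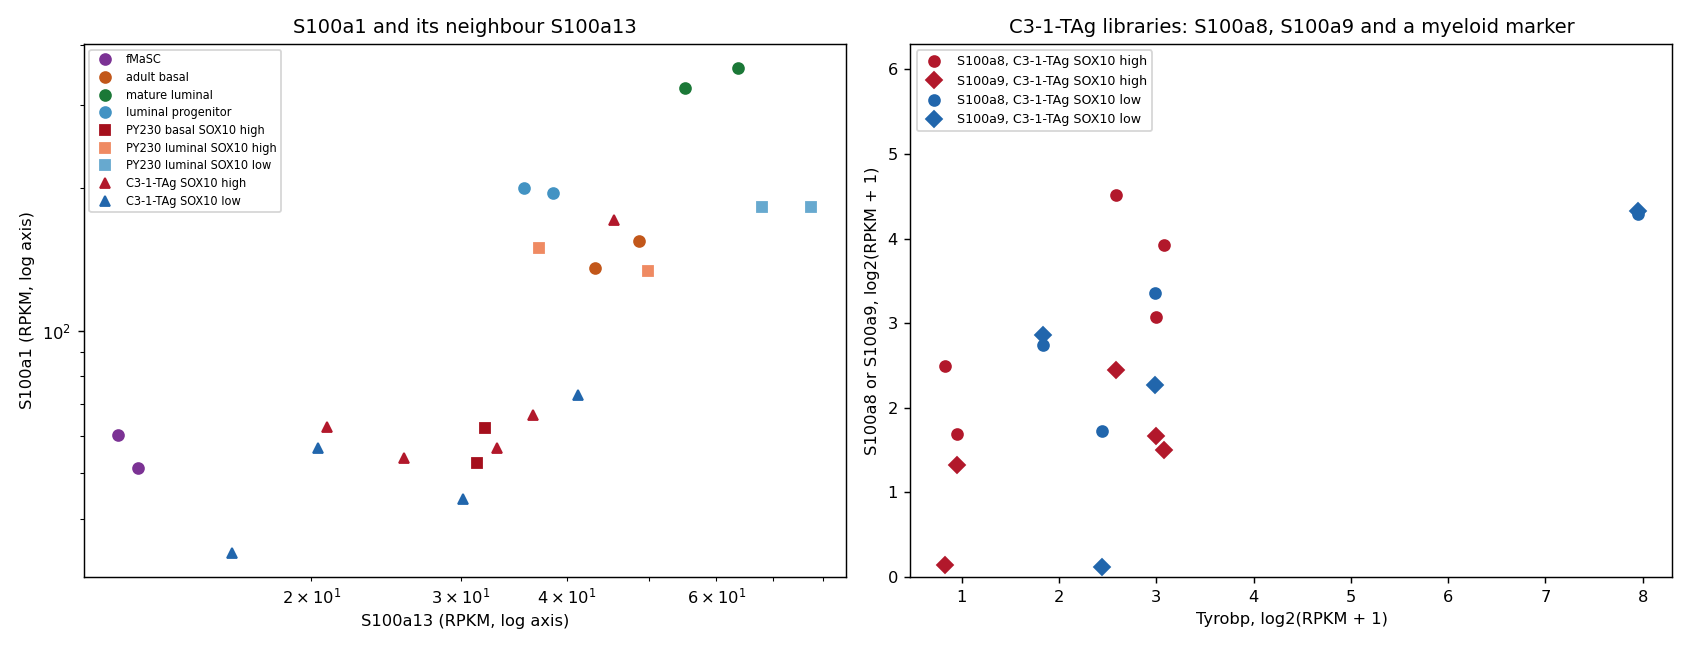
Left, S100a1 against S100a13 in RPKM on log axes, 1 point per library in 3 tables (circles normal, squares PY230, triangles C3-1-TAg); the fMaSC points are lowest in S100a13 and the mature luminal points highest in S100a1. Right, S100a8 and S100a9 against the myeloid marker Tyrobp in the 9 C3-1-TAg libraries as log2(RPKM + 1); 1 SOX10 low library stands far to the right, with the highest S100a9 of the 9.

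S100a14 and S100a16 are neighbours on the chromosome and are expressed in many epithelia. S100a14 was at 24.3 and 24.8 RPKM in fMaSC, 73.1 and 49.4 RPKM in basal, 181 and 138 RPKM in mature luminal and 169.5 and 239 RPKM in luminal progenitor cells. The order was fMaSC below basal and basal below both luminal groups, which overlapped. The log2 fold change in fMaSC was -1.26 over basal (limma adjusted p = 0.00526), -2.63 over mature luminal (adjusted p = 0.000189) and -2.98 over luminal progenitor cells (adjusted p = 0.000144). In basal cells it was -1.38 over mature luminal (limma adjusted p = 0.00509) and -1.73 over luminal progenitor cells (adjusted p = 0.00314), and these 5 calls held in all 13 alternative settings.

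S100a16 had another order. It was at 284 and 277 RPKM in fMaSC, 187 and 240.3 RPKM in basal, 587 and 462 RPKM in mature luminal and 717 and 1318 RPKM in luminal progenitor cells. The fetal libraries lay above the basal ones, by 0.40 on the log2 scale (95% interval -0.32 to 1.13; limma adjusted p = 0.29), and the luminal progenitors were highest. Over luminal progenitors the log2 fold change was -1.79 in fMaSC (limma adjusted p = 0.00261) and -2.19 in basal cells (adjusted p = 0.00225). Basal over mature luminal cells was -1.29 (limma adjusted p = 0.0117; 0.0777 without mature luminal replicate 1). The call for fMaSC over mature luminal cells, -0.89 (limma adjusted p = 0.0412), was lost when any 1 library of either group was left out: adjusted p was 0.136 and 0.152 without fMaSC replicates 1 and 2, and 0.183 and 0.0744 without mature luminal replicates 1 and 2. Mature luminal over luminal progenitor cells was -0.90 and missed the threshold (limma adjusted p = 0.0788).

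S100a4, or metastasin, binds non-muscle myosin (Myh9) and marks fibroblasts and migrating cells in mice. It was at 2.05 and 2.52 RPKM in fMaSC, 6.15 and 4.69 RPKM in basal, 0.986 and 2.88 RPKM in mature luminal and 8.23 and 18.7 RPKM in luminal progenitor cells. The luminal progenitor libraries were highest and the fMaSC and mature luminal libraries overlapped. It was lower in fMaSC over luminal progenitors (-2.04, limma adjusted p = 0.00729) and in mature luminal over luminal progenitors (-2.28, adjusted p = 0.0122). That last call was lost without mature luminal replicate 1 (-1.79, limma adjusted p = 0.0762) and without luminal progenitor replicate 2 (-1.73, adjusted p = 0.0639). The summed fibroblast list was at 82.8 to 99.7 RPKM in fMaSC, 54.3 to 58.2 RPKM in basal, 7.26 to 25.5 RPKM in mature luminal and 13.5 to 24.5 RPKM in luminal progenitor cells, and its part in S100a4 was not tested. The annotation GENCODE M21 places the gene model Gm42674 over S100a4 on the same strand, and reads from it cannot be told apart.

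S100a8 and S100a9, the calprotectin subunits, parted in the normal gland. S100a8 was at 1.09 and 0.414 RPKM in fMaSC, at 0.374 and 0.664 RPKM in mature luminal cells and at 14.4 and 10.97 RPKM in luminal progenitors, and was listed at 0 in 1 adult basal library and at 2.53 RPKM in the other. S100a9 was listed at 0 in all 8 normal libraries. Both luminal progenitor libraries lay above all others in S100a8, with log2 fold changes over them of -2.98 in fMaSC (limma adjusted p = 0.00344), -2.85 in basal (adjusted p = 0.00718) and -3.16 in mature luminal cells (adjusted p = 0.00768). Leaving out luminal progenitor replicate 1 put the last pair over the threshold (limma adjusted p = 0.0503 for basal and 0.0598 for mature luminal cells), as did leaving out mature luminal replicate 1 (0.0562) or 2 (0.0511) for the mature luminal comparison. The neutrophil list, without the members, summed to 0.211 to 0.554 RPKM in the luminal progenitors, with Csf3r listed at 0 in both. The monocyte and macrophage list summed to 357 to 369.8 RPKM there, of which Cd14 made up 299 and 307 RPKM and Cd68 57.1 and 60.2 RPKM, while Ptprc was at 0.176 and 0.110 RPKM and Tyrobp was listed at 0 in both.

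S100b was detected in the fetal cells alone among the 8 normal libraries. It was at 0.819 and 0.779 RPKM in fMaSC and was listed at 0 in all 6 adult libraries, so it was not tested and no fold is given. Sox10 itself was at 24.2 and 26.2 RPKM in fMaSC, at 4.41 and 8.31 RPKM in basal, at 0.0801 and 0.324 RPKM in mature luminal and at 4.85 and 11.6 RPKM in luminal progenitor cells. The Schwann cell and melanocyte list summed to 39.1 to 46.1 RPKM in fMaSC, 19.0 to 19.6 RPKM in basal, 37.5 to 38.7 RPKM in mature luminal and 22.6 to 24.6 RPKM in luminal progenitor cells. Of the 4 tested genes of this list, 2 were called higher and 1 lower in fMaSC over each adult group. The shares of all genes called either way were 60.3%, 56.4% and 50.6% over basal, mature luminal and luminal progenitor cells. The melanocyte gene Dct of this list was at 17.9 and 22.9 RPKM in fMaSC and listed at 0 in the 6 adult libraries. The part of such cells in S100b was not tested. S100b overlaps Dip2a, which is read from the other strand in GENCODE M21, and since the library type does not mark strand their shared reads cannot be told apart. Dip2a was at 1.12 and 0.849 RPKM in fMaSC and between 0.549 and 2.11 RPKM in the adult libraries.

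**Figure D4:**
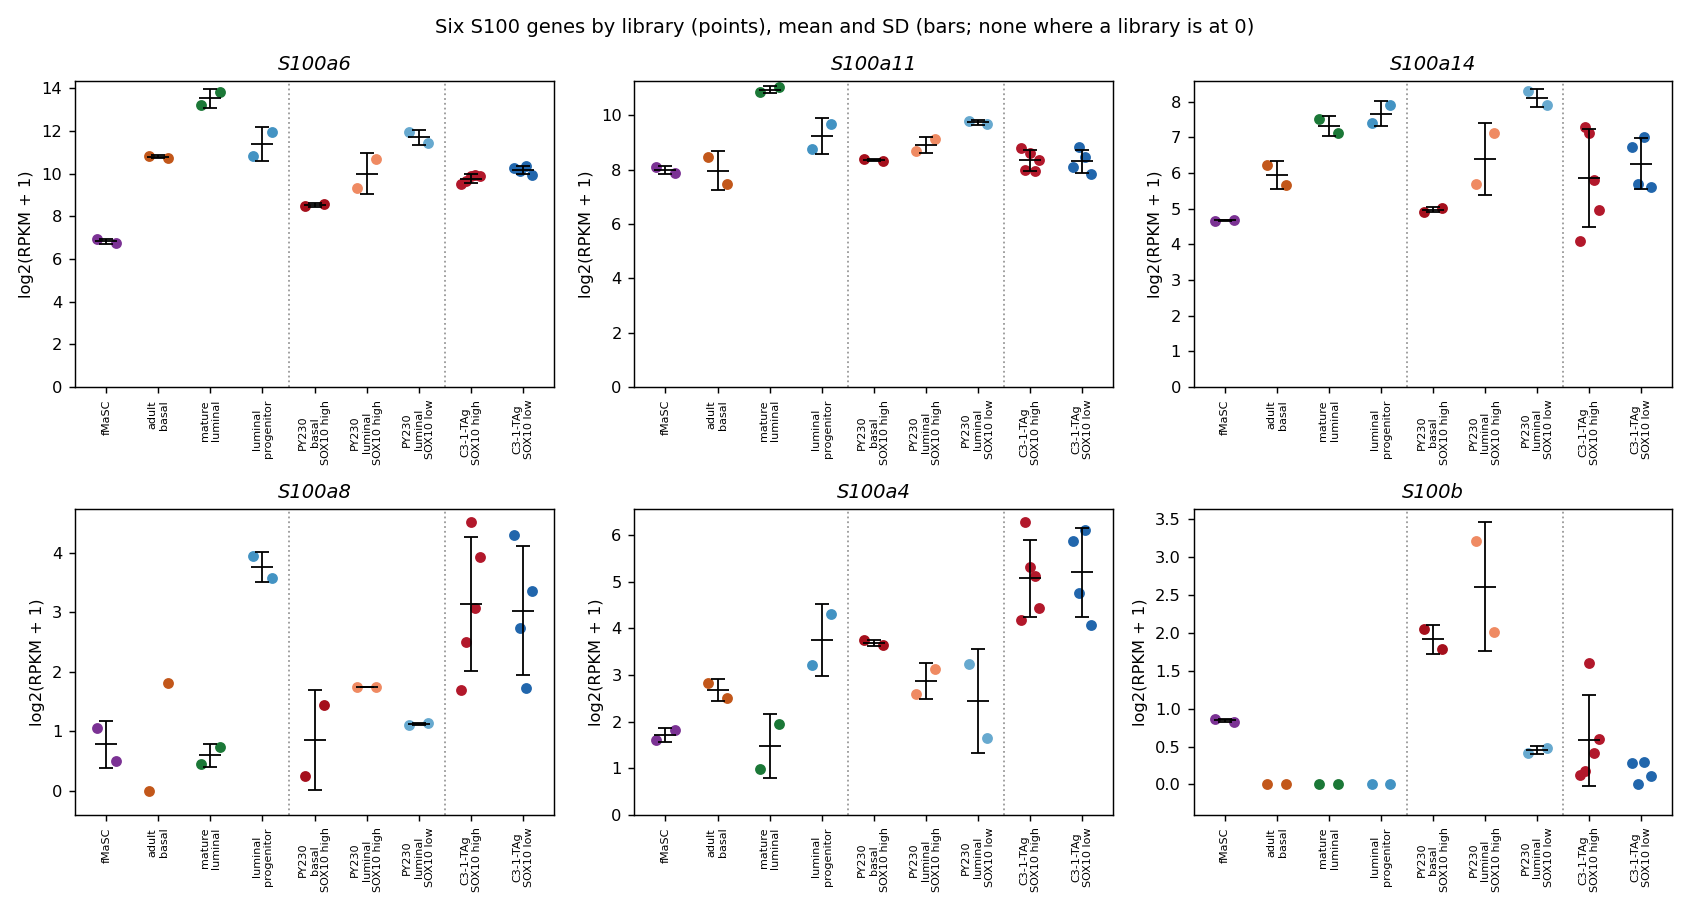
Levels of 6 S100 genes by library as log2(RPKM + 1) in 9 groups of 3 tables parted by dotted lines, with the mean and SD of a group except where a library is listed at 0. S100a6, S100a11 and S100a14 are lower in PY230 luminal SOX10 high than in luminal SOX10 low cells, and S100b is higher.

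In PY230 tumours the SOX10 high luminal cells had less S100a6, S100a11, S100a14 and S100a16 and more S100b than the SOX10 low luminal cells. Of 9 tested members, 4 were lower and 1 was higher, where 10.0% of all 13136 genes tested were called lower, 12.6% higher and 22.6% in either direction. In basal over luminal SOX10 high cells, 3 of 9 were lower and 1 higher, with 28.2% of all genes lower, 13.8% higher and 42.0% either way. In basal SOX10 high over luminal SOX10 low cells, 4 of 9 were lower and 1 higher, with 33.4% lower, 21.8% higher and 55.2% either way. S100a9 did not pass the filter. The 3 comparisons share libraries in pairs.

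S100a6 was at 358 and 387 RPKM in basal SOX10 high, 641 and 1657 RPKM in luminal SOX10 high and 3958 and 2807 RPKM in luminal SOX10 low cells. The 3 groups did not overlap, and luminal SOX10 high replicate 1 was nearer the basal libraries than replicate 2 was. In luminal SOX10 high over low cells its log2 fold change was -1.69 (SE 0.44; limma adjusted p = 0.0383), and in basal SOX10 high over luminal SOX10 low cells -3.16 (adjusted p = 0.00118). Basal over luminal SOX10 high cells was -1.47 (limma adjusted p = 0.0364), a call lost with median-of-ratios factors (0.0705) and with no filter (0.122). The last-named call was lost without basal replicate 1 (limma adjusted p = 0.146) or 2 (0.116) and without luminal SOX10 high replicate 2 (-0.78, adjusted p = 0.0523). The luminal high over low call was lost without luminal SOX10 high replicate 1 (-1.01, limma adjusted p = 0.0806) and without luminal SOX10 low replicate 1 (0.161) or 2 (0.104). It was also lost with quantile normalization (-0.92, limma adjusted p = 0.193), with no filter (adjusted p = 0.124) and with only the 2 groups in the fit (0.0708).

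S100a14 ran close to S100a6 in these tumours. It was at 29.2 and 31.3 RPKM in basal SOX10 high, 50.3 and 138 RPKM in luminal SOX10 high and 312 and 241 RPKM in luminal SOX10 low cells, again with no overlap and with luminal SOX10 high replicate 1 the lower of its pair. The Pearson correlation of S100a14 with S100a6 over the 6 PY230 libraries was 0.999 on log2(RPKM + 1), and that of S100a11 with S100a6 was 0.991, as a description over libraries that differ mainly by group. The S100a14 log2 fold change was -1.70 in luminal SOX10 high over low cells (limma adjusted p = 0.0338; 0.127 and 0.0971 without luminal SOX10 low replicates 1 and 2), -1.43 in basal over luminal SOX10 high cells (adjusted p = 0.0339; 0.14 and 0.113 without basal replicates 1 and 2, 0.067 with median-of-ratios factors and 0.0847 with quantile normalization) and -3.14 in basal SOX10 high over luminal SOX10 low cells (adjusted p = 0.00101). The first of these calls was also lost with no filter (limma adjusted p = 0.0756), with only the 2 groups in the fit (0.0619) and with quantile normalization (-1.68, adjusted p = 0.0532). The basal over luminal SOX10 high call was also lost with no filter (limma adjusted p = 0.0726). Without luminal SOX10 high replicate 1 the luminal high over low value was -0.99. The basal over luminal SOX10 high value was -2.15 without luminal SOX10 high replicate 1 and -0.72 without replicate 2, and kept the call in both.

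S100a11 was at 334 and 321 RPKM in basal SOX10 high, 416 and 554 RPKM in luminal SOX10 high and 890.2 and 821 RPKM in luminal SOX10 low cells, with no overlap. Its log2 fold change was -0.83 in luminal SOX10 high over low cells (limma adjusted p = 0.0302) and -1.38 in basal SOX10 high over luminal SOX10 low cells (adjusted p = 0.00131). Basal over luminal SOX10 high cells was -0.55 and missed the threshold (limma adjusted p = 0.0634). The luminal high over low call was lost with quantile normalization (-0.42, limma adjusted p = 0.201), with no filter (0.107) and with only the 2 groups in the fit (0.0567). The luminal call was lost without luminal SOX10 high replicate 1 (limma adjusted p = 0.0737) and without luminal SOX10 low replicate 1 (0.171) or 2 (0.144). Sums of some marker lists had the same order as these genes. The mature luminal list summed to 34.9 to 61.7 RPKM in basal SOX10 high, 304 to 530.2 RPKM in luminal SOX10 high and 1139 to 1523 RPKM in luminal SOX10 low cells. The luminal keratins summed to 252 to 452 RPKM in basal SOX10 high, 2987 to 4412 RPKM in luminal SOX10 high and 8474 to 9007 RPKM in luminal SOX10 low cells. The skin keratinocyte list, most of it Sprr1a and Krt6a, summed to 23.8 to 37.5 RPKM in basal SOX10 high, 77.7 to 292 RPKM in luminal SOX10 high and 357 to 642 RPKM in luminal SOX10 low cells. In luminal SOX10 high over low cells, 1 of 4 mature luminal genes and 2 of 3 luminal keratins were called lower. Of 4 tested skin keratinocyte genes, 0 were called lower, against 10.0% of all genes. Other lists ran the other way between the luminal fractions, where 12.6% of all genes were called higher in luminal SOX10 high cells. The luminal progenitor list was at 715 to 1639 RPKM in luminal SOX10 high and 102 to 116 RPKM in luminal SOX10 low cells (3 of 4 genes called higher), and the monocyte and macrophage list at 193 to 240.0 RPKM in luminal SOX10 high and 52.7 to 73.1 RPKM in luminal SOX10 low cells (4 of 7 tested genes called higher). The part of these cells in the S100 levels was not tested.

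S100a1 separated the basal from the luminal cells. It was at 62.4 and 52.5 RPKM in basal SOX10 high, 149 and 134 RPKM in luminal SOX10 high and 182 and 183 RPKM in luminal SOX10 low cells. The log2 fold change in basal SOX10 high cells was -1.29 over luminal SOX10 high (limma adjusted p = 0.000834) and -1.65 over luminal SOX10 low cells (adjusted p = 0.000172), and both held in all 13 alternative settings. Between the luminal fractions it was -0.37 (limma adjusted p = 0.115). S100a13 was at 32.0 and 31.4 RPKM in basal SOX10 high, 37.1 and 49.9 RPKM in luminal SOX10 high and 77.6 and 67.9 RPKM in luminal SOX10 low cells. Its log2 fold change over luminal SOX10 low cells was -1.17 in basal SOX10 high and -0.74 in luminal SOX10 high cells, both past limma's threshold.

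S100a10 and S100a16 were lowest in the luminal SOX10 high cells. S100a10 was at 446 and 459 RPKM in basal SOX10 high, 285 and 315 RPKM in luminal SOX10 high and 459 and 412 RPKM in luminal SOX10 low cells. S100a16 was at 134 and 126 RPKM in basal SOX10 high, 102 and 98.7 RPKM in luminal SOX10 high and 148 and 154 RPKM in luminal SOX10 low cells. Neither gene's luminal SOX10 high libraries overlapped another group. For S100a10, basal over luminal SOX10 high cells was 0.59 (limma adjusted p = 0.0247; 0.0905 and 0.099 without basal replicates 1 and 2, and 0.0505 with the replicate number as a block), and luminal SOX10 high over low cells was -0.54 (adjusted p = 0.0551). For S100a16, luminal SOX10 high over low cells was -0.58 (limma adjusted p = 0.0237; 0.0506 without luminal SOX10 high replicate 1, 0.135 and 0.176 without luminal SOX10 low replicates 1 and 2), and basal over luminal SOX10 high cells was 0.36 (adjusted p = 0.0561). The ratio of S100a10 to Anxa2 level was 1.197 and 1.22 in basal SOX10 high, 0.690 and 0.545 in luminal SOX10 high and 0.487 and 0.563 in luminal SOX10 low cells. As in the normal gland, the basal libraries had more S100a10 per Anxa2 than both luminal groups.

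S100b was high where Sox10 was high. It was at 3.13 and 2.44 RPKM in basal SOX10 high, 8.28 and 3.02 RPKM in luminal SOX10 high and 0.332 and 0.402 RPKM in luminal SOX10 low cells. Both SOX10 high groups lay above the SOX10 low libraries, and they overlapped each other. The log2 fold change over luminal SOX10 low cells was 2.16 in luminal SOX10 high (SE 0.37; limma adjusted p = 0.0135; 0.0504 and 0.0585 without luminal SOX10 low replicates 1 and 2) and 1.46 in basal SOX10 high cells (adjusted p = 0.0143; 0.0819 without basal replicate 1). At such low levels the value depends on the pseudocount: in luminal SOX10 high cells it was 3.46 with 0.1 and 1.09 with 4, and in basal SOX10 high cells 2.62 with 0.1 and 0.63 with 4, where the call was lost (limma adjusted p = 0.0604). Without luminal SOX10 high replicate 1 the luminal value was 1.56 and kept the call. The Schwann cell and melanocyte list summed to 6.08 to 6.31 RPKM in basal SOX10 high, 12.6 to 12.9 RPKM in luminal SOX10 high and 14.8 to 15.3 RPKM in luminal SOX10 low cells, with Dct listed at 0 in all 6, and its part in S100b was not tested. Dip2a, which overlaps S100b, was at 10.8 and 10.97 RPKM in basal SOX10 high, 9.73 and 8.50 RPKM in luminal SOX10 high and 6.81 and 7.63 RPKM in luminal SOX10 low cells, and its part in S100b was not tested.

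S100a4, S100a8 and S100a9 gave no call in PY230 tumours. S100a4 was at 12.3 and 11.5 RPKM in basal SOX10 high, 5.07 and 7.79 RPKM in luminal SOX10 high and 8.41 and 2.15 RPKM in luminal SOX10 low cells, and basal over luminal SOX10 low cells had a log2 fold change of 1.24 (limma adjusted p = 0.062). The fibroblast list was also highest in the basal libraries, at 183 to 307 RPKM against 97.2 to 182 RPKM in luminal SOX10 high and 63.0 to 126 RPKM in luminal SOX10 low cells, and its part was not tested. S100a8 stayed between 0.197 and 2.37 RPKM and S100a9 at or below 1.61 RPKM in all 6 libraries.

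All C3-1-TAg levels are given with 2 RPKM taken off every value above 0, since no deposited value there lies between 0 and 2. In C3-1-TAg tumours, 0 of 9 tested members were called between SOX10 high and SOX10 low cells. Of all 11948 genes tested, 5 or 0.0418% passed limma's threshold. Sox10, the gene that names the fractions, had a log2 fold change of 3.19 and was not called either. A missing call in this comparison therefore does not show equal levels. At an unadjusted p under 0.05, limma called 0 members and 365 genes (3.05%). The groups of every member overlapped, but the share of all genes whose groups overlap is not given beside this. The limma adjusted p of all 9 tested members was 1.

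**Figure D5:**
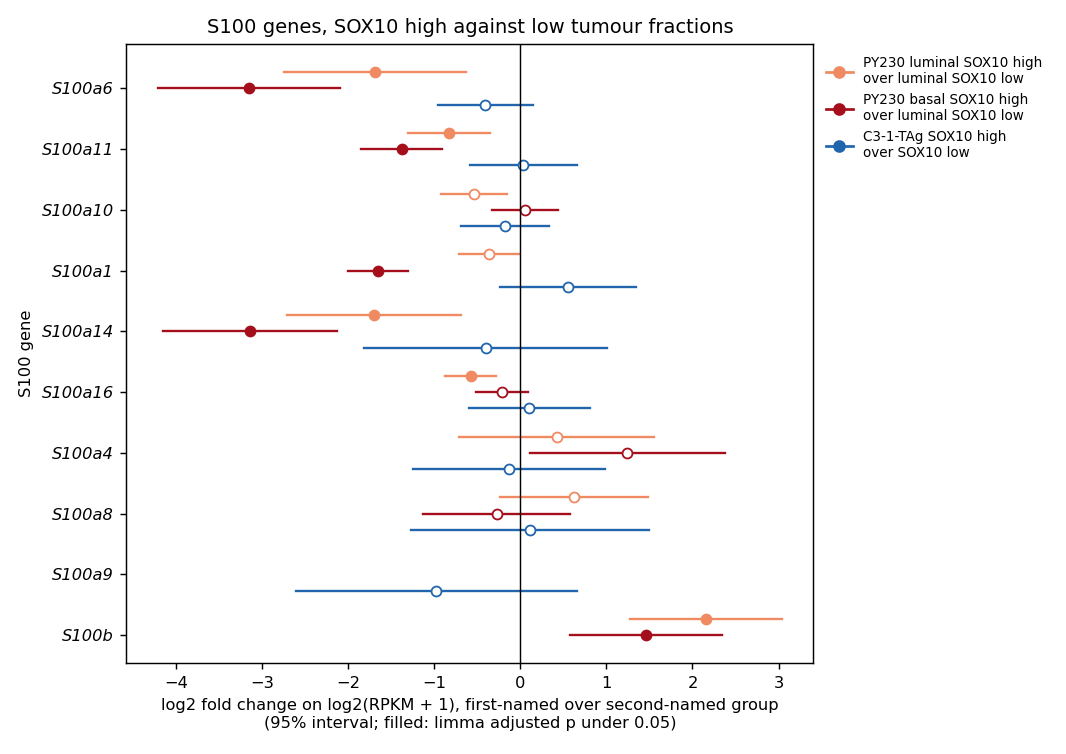
Log2 fold changes of S100 genes with 95% intervals in PY230 luminal SOX10 high over luminal SOX10 low, PY230 basal SOX10 high over luminal SOX10 low and C3-1-TAg SOX10 high over SOX10 low cells; filled points have a limma adjusted p under 0.05. S100a6 lies at -1.69, -3.16 and -0.41, and all C3-1-TAg intervals span 0.

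S100a6 came closest to a difference. It was at 723, 809, 943, 983 and 951 RPKM in SOX10 high and at 1238, 1134, 1332 and 979 RPKM in SOX10 low libraries, so that the groups overlapped by 1 library. The log2 difference was -0.41 (95% interval -0.96 to 0.14 in limma). A two-sided exact permutation test over the 9 libraries, with 126 arrangements, gave p = 0.0159, where 0.00794 is the smallest p possible, and the other 9 members had p between 0.198 and 0.921 in the same test. These 10 p-values are not adjusted. Without SOX10 low replicate 1, which held the myeloid transcripts, the S100a6 difference was -0.38 (exact permutation p = 0.0536, with 56 arrangements), and the exact p was over 0.05 without SOX10 high replicate 1, 2, 3 or 5 (0.0571 in each) and without SOX10 low replicate 3 (0.0714).

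The other epithelial members varied more within a C3-1-TAg group than between the groups. S100a10 was at 453 to 539.9 RPKM (median 482) in SOX10 high and 413 to 708 RPKM in SOX10 low libraries, with a 95% interval of the log2 difference from -0.69 to 0.34. Without SOX10 low replicate 4 the S100a10 difference was -0.32 (exact permutation p = 0.0357). S100a11 was at 248 to 441 RPKM in SOX10 high and 227 to 451 RPKM in SOX10 low libraries (interval -0.59 to 0.65). S100a16 was at 38.5 to 118 RPKM in SOX10 high and 48.0 to 89.3 RPKM in SOX10 low libraries (interval -0.60 to 0.81). The intervals of these 3 members, like that of S100a6, leave out a log2 difference of 1, whereas those of S100a14 (-1.82 to 1.01), S100a4 (-1.25 to 0.98), S100a1 (-0.24 to 1.34) and S100a8 (-1.27 to 1.49) are wider. S100a14 ranged from 16.1 to 155 RPKM in SOX10 high and from 47.8 to 128 RPKM in SOX10 low libraries, and S100a4 from 17.2 to 77.2 RPKM in SOX10 high and from 15.8 to 67.9 RPKM in SOX10 low libraries. These 2 genes varied together, with a Pearson correlation of 0.87 on log2(RPKM + 1) over the 9 libraries, which share a table and 2 groups.

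S100a8 was at 2.24, 4.63, 21.8, 7.41 and 14.2 RPKM in SOX10 high and at 18.6, 5.68, 2.31 and 9.24 RPKM in SOX10 low libraries. S100a9 was at 1.51, 0.105, 4.47, 2.18 and 1.82 RPKM in SOX10 high and at 19.1, 6.29, 0.083 and 3.83 RPKM in SOX10 low libraries. The highest S100a9 was in SOX10 low replicate 1, where the neutrophil list summed to 211 RPKM against 1.07 to 25.6 RPKM in the other 8 libraries, and the monocyte and macrophage list to 1867 RPKM against 58.2 to 202 RPKM. Without that library the S100a9 log2 difference was -0.33 (exact permutation p = 0.714), against -0.98 (exact permutation p = 0.302) with it. Without SOX10 low replicate 3, where S100a9 was lowest, it was -1.74 (exact permutation p = 0.0357). S100a8 was not confined to it: SOX10 high replicate 3 had the most, at 21.8 RPKM with 4.99 RPKM of Tyrobp.

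S100b was at 0.087, 0.131, 2.03, 0.33 and 0.513 RPKM in SOX10 high libraries, and in SOX10 low libraries it was at 0.222, 0.232 and 0.076 RPKM and listed at 0 in the fourth. It did not pass the filter, and the exact permutation test gave p = 0.198. These values depend on the 2 RPKM taken off, and no source used here states that a constant was added. On the values as deposited the difference was 0.58 (exact permutation p = 0.0714), against 0.41 with 2 taken off.

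Called partners of the S100 proteins lay in both directions. Of 9 partner and target genes, 4 were lower and 3 higher in fMaSC over basal cells, 5 lower and 2 higher over mature luminal cells, and 5 lower and 2 higher over luminal progenitors, by limma's threshold over all genes. These are 7 of 9 in each comparison, where 60.3%, 56.4% and 50.6% of all genes were called over basal, mature luminal and luminal progenitor cells. Anxa1 had 51.1 and 44.1 RPKM in fMaSC against 218 and 125 RPKM in basal, 1645 and 1173 RPKM in mature luminal and 1005 and 1365 RPKM in luminal progenitor cells. Ahnak, a large scaffold bound by the S100a10 and annexin A2 tetramer, had 51.9 and 59.5 RPKM in fMaSC against 403 to 897 RPKM in the adult libraries, with log2 fold changes of -3.56, -3.15 and -3.90 over basal, mature luminal and luminal progenitor cells. Anxa6 ran the other way, with 403 and 501 RPKM in fMaSC against 25.1 to 95.3 RPKM in the adult libraries. Cacybp, the partner of S100a6, was higher in fMaSC over all 3 adult groups, with 238 and 240.0 RPKM there, against 141 and 154 RPKM in basal, 41.3 and 40.5 RPKM in mature luminal and 101 and 84.7 RPKM in luminal progenitor cells. Its correlation with S100a6 was -0.93 over the 8 normal and -0.89 over the 6 PY230 libraries, as a description.

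In PY230 luminal SOX10 high over low cells, 2 of the 9 partners were lower (Anxa5 and Myh9) and Anxa6 was higher. Of all genes there, 10.0% were called lower, 12.6% higher and 22.6% either way. Anxa6 was also higher in basal over luminal SOX10 high cells (0.95) and in basal SOX10 high over luminal SOX10 low cells (1.76), while Anxa1 was lower in both (-2.07 and -3.16). In C3-1-TAg cells 0 of the 9 partners and 0 of the 6 receptors tested were called, against 0.0418% of all genes. Of the 7 receptor genes, 5 passed the filter in the normal table. Mcam, which encodes a cell adhesion molecule, was lower in fMaSC over basal (-2.54) and higher over mature luminal (3.09) and luminal progenitor cells (2.42), and Bsg, or basigin, was higher over basal (2.47) and luminal progenitor cells (1.13). In PY230 cells 5 receptors were also tested, and Mcam was higher (3.02) and Alcam lower (-1.63) in luminal SOX10 high over low cells. Ager, which encodes the receptor RAGE, was at or below 0.0323 RPKM in every normal library and, in its own table, between 2.97 and 4.13 RPKM in the PY230 libraries. Tlr4, a receptor for S100a8, was lower in fMaSC over all 3 adult groups (-1.39, -1.97 and -2.18 over basal, mature luminal and luminal progenitor cells).

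A further 8 genes with S100 symbols were listed. Of these, 5 passed the filter among the normal, 3 among the PY230 and 4 among the C3-1-TAg libraries. The 8 include S100pbp on chromosome 4, which is named for binding an S100 protein and is not a family member. It was among the 5 tested in the normal libraries. Beside S100a13, S100a3 was lower in mature luminal over luminal progenitor cells (-2.68) and in basal over luminal progenitor cells (-2.13) and higher in fMaSC over mature luminal cells (1.92). S100a7a was lower in basal over luminal progenitor cells (-2.20). In PY230 cells S100a3 was higher in basal over luminal SOX10 high cells (0.91), and in C3-1-TAg cells 0 of the 4 were called. S100a5 was listed at 0 in all 23 libraries.

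Across the 23 libraries, with the mean of each table taken off, 11 of the 45 pairs of members had a Pearson correlation above 0.5 and 2 below -0.5, with a median of 0.19. S100a1 with S100a6 (0.82), S100a6 with S100a10 (0.81) and S100a6 with S100a11 (0.79) were the highest pairs, and S100b with S100a6 (-0.54) the lowest. By the measure over all 23 libraries the genes most like S100a6 among 10527 others were Rassf6 (0.96), Krt7 (0.96) and Slc25a24 (0.95). Those most like S100a11 were Rac1 (0.92), Lasp1 (0.91) and Rin2 (0.90), and those most like S100a10 were Itgav (0.88), Ahnak (0.88) and Malat1 (0.87). S100a1 was most like Mbp (0.93), Dkkl1 (0.91) and AA986860 (0.91), S100a14 like Vtcn1 (0.90), Tmcc3 (0.88) and Cdk19 (0.88), and S100a16 like Anxa5 (0.90), Rnf14 (0.86) and Pstpip2 (0.81). S100a4 was most like Pls3 (0.81), Msn (0.80) and Gsto1 (0.79), and S100a8 like Klk10 (0.85), Zbtb46 (0.83) and Nsmf (0.80). S100a9 was most like Ifi27l2a (0.90), Isg15 (0.83) and Irf7 (0.83), with most of its levels near 0 outside the C3-1-TAg table, and S100b like Clcn2 (0.82), Shf (0.80) and Echdc2 (0.77). The points share tables, libraries and groups, and the correlations are descriptions.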

How the data were processed

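RNA-seq libraries of sorted mouse mammary cells were made with SmartSeq2 and Nextera XT (18 and then 10 PCR cycles, single-end reads of 50 or 75 bp), per the labels' protocols. The values deposited by the authors are RPKM per gene in 3 tables. Per the submitters' processing notes, the build was mm9 and the tools were HISAT2 2.0.5, StringTie 1.3.1c and FastQC; no source used here gives the gene annotation. In the C3-1-TAg table every value above 0 exceeds 2, so 2 was taken off values above 0 (no source used here states such a constant), and 2200 symbols were respelled to match the other tables. RPKM holds no counts, so the absolute depth is unknown and values carry no counting error; by the step size of low values, the depth of a library was 0.745 to 1.34 (PY230) and 0.626 to 1.3 (C3-1-TAg) of the first library of its table. The reads carry no molecular identifiers or strand.

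Groups were taken from the titles. Each table was fitted in limma 3.58.1 (R 4.3.3) on log2(RPKM + 1), all groups together, with an intensity trend and no replicate term, for genes with at least 1 RPKM in 2 libraries (4 for C3-1-TAg). P-values were two-sided and Benjamini-Hochberg adjusted over all genes tested, with a threshold of 0.05. A fold change on this scale understates changes of low genes. C3-1-TAg members were also tested with an exact permutation test. The median residual SD was 0.27 (normal), 0.17 (PY230) and 0.39 (C3-1-TAg). The script was tested on simulated data, with 100 genes changed by a log2 size of 1 and 100 by 2. It called 18% and 54% of them in fMaSC over basal cells and 53% and 86% in PY230 luminal SOX10 high over low cells. In C3-1-TAg cells it called 31% and 76%. The simulation changed a far smaller share of genes than was called in fMaSC over basal cells (60.3%) and in PY230 luminal SOX10 high over low cells (22.6%). With fewer changed genes the adjusted threshold is stricter, so these rates are not those of the data. A gene without a call may still differ. Alternatives were other pseudocounts (0.1, 4), filters (5 RPKM, none), scalings, the values as deposited, a fit without the trend or of only the groups compared, a replicate block and leaving out each library. All 10 members were named. Partners, receptors, other genes with S100 symbols and marker genes came from lists, and the 3 genes most like each member were taken by correlation. The members and lists were chosen with earlier results of these data known. Same-numbered libraries did not deviate together in every pair and no label ties them, so the numbers were not used as pairs in the main fit. Whether the libraries were paired is not known.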

Additional observations from a re-analysis of the deposited data

Results flagged for a closer look

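SOX10 high replicate 3 of the C3-1-TAg tumours lay far from the other 4 SOX10 high libraries in S100a1 and in S100b. S100a1 was at 171 RPKM there against 53.8 to 66.4 RPKM in the others, a gap of 0.893 of the group's range where Dixon's 95% critical value for 5 samples is 0.71. S100b was at 2.03 RPKM there against 0.087 to 0.513 RPKM in the others, a gap of 0.78 of the range. In all, 20 groups were examined in this way, and chance flags about 1 group in 20. Without this library the S100a1 log2 difference between SOX10 high and SOX10 low cells was 0.25 (limma adjusted p = 1).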

How the results depend on the processing

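The members gave 46 calls, of which 27 held in every alternative run. Over all alternatives these calls gave 596 values, of which 525 kept the call, 71 lost it and 0 changed direction. Without a filter 10 calls were lost, with only the groups compared in the fit 5 and with quantile normalization 4. In PY230 luminal SOX10 high over low cells 5 members were called, and 2 in each of these 3 settings. In PY230 basal over luminal SOX10 high cells 4 were called, and 1 without a filter. Leaving out single libraries gave 0 to 6 calls in PY230 luminal SOX10 high over low cells (0 without either luminal SOX10 low library), 1 to 5 in PY230 basal over luminal SOX10 high cells, and 1 to 3, against 5, in mature luminal over luminal progenitor cells. The exact permutation test in C3-1-TAg cells had p under 0.05 for 1 member, for 0 with quantile normalization, and for 0 to 2 without single libraries. The cause of these shifts was not tested. These counts are of members alone, and the share of all genes called in each setting is not given beside them. A loss of calls over the whole table and a loss particular to the members are therefore not told apart.

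No label ties same-numbered libraries together. Deviations of same-numbered libraries correlated at 0.0004 to 0.22 (normal), -0.26 to 0.30 (PY230) and -0.34 to 0.20 (C3-1-TAg). With 2 libraries a group, numbers 1 and 2 give the same value by construction, so these values cannot settle whether the libraries were paired. With the replicate number as a block, 4, 6 and 8 members were called in fMaSC over basal, mature luminal and luminal progenitor cells, 6 in basal over mature luminal, 3 in basal over luminal progenitor and 5 in mature luminal over luminal progenitor cells. The block gave 5, 3 and 5 calls in PY230 luminal SOX10 high over low, basal over luminal SOX10 high and basal SOX10 high over luminal SOX10 low cells, and 0 in C3-1-TAg cells. The share of all genes called with the block is likewise not given.

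Among values of members with no call, 28 passed the threshold under an alternative. Log2 differences changed sign only for members with no call. Without single libraries, S100a11 in fMaSC over basal cells ran from -0.49 to 0.53, S100a8 in fMaSC over basal cells from -1.04 to 0.78, S100a4 in fMaSC over mature luminal cells from -0.25 to 0.72, S100a8 in fMaSC over mature luminal cells from -0.10 to 0.47, S100a8 in basal over mature luminal cells from -0.60 to 1.22 and S100a10 in mature luminal over luminal progenitor cells from -0.12 to 0.48. Likewise S100a4 in PY230 luminal SOX10 high over low cells ran from -0.37 to 1.21, and in basal SOX10 high over luminal SOX10 low cells S100a8 ran from -0.87 to 0.32 and S100a10 from -0.0195 to 0.13. In C3-1-TAg cells S100a4 ran from -0.51 to 0.17, S100a8 from -0.32 to 0.53, S100a11 from -0.13 to 0.20, S100a14 from -0.76 to 0.033 and S100a16 from -0.070 to 0.33, and with the block S100a4 was 0.025 and S100a8 -0.086. With median-of-ratios factors S100a11 in fMaSC over basal cells was -0.27, and in fMaSC over mature luminal cells S100a4 was -0.11 and S100a8 -0.0066. With quantile normalization the same 3 were -0.17, -0.39 and -0.40, S100a6 and S100a10 in basal over luminal progenitor cells were 0.20 and 0.28, and S100a10 was 0.32 in basal over mature luminal and -0.043 in mature luminal over luminal progenitor cells. With a pseudocount of 0.1 S100a8 was 0.61 in fMaSC over basal and -0.23 in basal over mature luminal cells.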
